A study of Mus musculus with 6 samples.

Results

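The transcription factors *Elf5*, *Elf3*, *Ehf*, *Gata3*, *Sox9*, *Sox10*, *Runx1*, *Cebpb*, *Nfib* and *Tfap2c* were followed in mammary luminal progenitor cells with and without *Robo1*. They were taken by symbol from a deposited table of 18537 known-gene clusters, in which all 10 were found, *Tfap2c* under its older symbol *Tcfap2c*. The cells came from adult nulliparous females of 10 to 12 weeks, either *Robo1+/+* or *Robo1-/-*, born as littermates to *Robo1+/-* parents. The null allele (Robo1tm1Matl) is carried in every cell of the *Robo1-/-* animal, basal and stromal cells included. Luminal progenitors were sorted from lineage-depleted gland as CD24-low, CD29-positive, CD61-positive cells. Each genotype gave 3 libraries, *Robo1+/+* gh03, gh09 and gh15 and *Robo1-/-* gh06, gh12 and gh18, each made from 2 animals, and poly(A)+ RNA was sequenced.

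Luminal progenitors are the cells from which milk-secreting alveoli form, and the genes described here are known for setting or keeping that fate. *Elf5* acts downstream of the prolactin receptor and drives alveolar secretory differentiation, *Gata3* maintains the luminal lineage, and *Sox9* and *Sox10* are tied to progenitor and stem-like states. *Elf3* and *Ehf* are epithelial Ets relatives of *Elf5*, *Runx1* belongs to the core binding factors, *Cebpb* is needed for alveolar growth, *Nfib* is a co-regulator of milk protein genes, and *Tfap2c* is an AP-2 factor of luminal cells.

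The values are normalized read counts, that is, the reads of a gene scaled by the size factor of its library. The libraries held between 9727191 and 17433868 reads over the table. *Robo1* itself was at 289, 574 and 541 in the *Robo1+/+* libraries and at 130, 214 and 177 in the *Robo1-/-* libraries, lower in all 3 (log2 fold change -1.39 ± 0.36 SE, limma rank 11 of 13692 genes by p, adjusted p = 0.858). Reads were still counted over the gene. The sort was checked against marker lists. The luminal progenitor markers *Kit* and *Aldh1a3* were at 4209 or more and 1972 or more in every library, while *Rspo1* of the same list fell to 4.58 in gh12. The 14 markers of the list summed to 104200 to 123600 in *Robo1+/+* and to at most 128300 in *Robo1-/-*, with gh18 lowest at 49850. In gh18 *Krt8*, *Krt18* and *Krt19* of this list were at 11182, 11522 and 2705, against 17028 or more in the other libraries. Their GC content is 56.9%, 56.4% and 57.6%. *Kit* and *Aldh1a3*, at 48.5% and 49.9% GC, were at 5038 and 5425 in gh18. Whether the gh18 GC trend, described below, had a part in the marker sums was not tested. The 13 mature luminal markers summed to 37750 to 41680 in *Robo1+/+* and to 32840 to 49860 in *Robo1-/-*, with gh18 lowest. Of these, *Esr1* and *Pgr* were at 1346 and 1721 or more, while *Tnfsf11* fell to 0.92 in gh12 and *Wnt4* to 4.38 in gh18. *Prlr*, which is not on that list, was at 20097 or more. The 16 basal markers summed to 1125 to 3098 in the *Robo1+/+* libraries against 1446 to 2182 in the *Robo1-/-* libraries, and the leukocyte markers found to 123 to 164 against 96.3 to 128, most of it *Cd68*, with *Ptprc* at 1.46 or less. The endothelial markers summed to 622 to 2224 in *Robo1+/+* and 174 to 1128 in *Robo1-/-*. Nearly all of this was *Vwf*, which ran from 140 in gh18 to 2167 in gh03, with *Pecam1* at 23.4 to 89.8 and *Cdh5* at 1.46 or less. Since *Sox10* is also a gene of Schwann cells, markers of theirs were read too, with *Foxd3* at 2.75 or less, *Mbp* at 29.2 to 221 and *Pmp22* at 69.98 to 209.77. Whether such cells had a part in any difference below was not tested. In these bulk samples, fewer cells of a type and less RNA per cell cannot be told apart.

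*Robo1-/-* library gh18 stood apart from the other 5 in a way that follows the base composition of the transcripts. The 12528 tested genes with a known GC content were split into 10 equal bins by it. The log2 value in gh18 minus the average of the remaining 5 had a median of 0.92 in the bin with the lowest GC content and of -2.29 in the bin with the highest (Spearman's rho -0.81, across genes, which are not independent replicates). The 10 factors span this range, from 42.4% GC in *Ehf* to 67.2% in *Cebpb*. To show what that means for a read, coding stretches of 75 bases, the length to which the reads were trimmed, are given for 5 of them, each chosen as the first stretch inside an exon with a GC content closest to that of the whole transcript. Capitals mark G and C.
Ehf: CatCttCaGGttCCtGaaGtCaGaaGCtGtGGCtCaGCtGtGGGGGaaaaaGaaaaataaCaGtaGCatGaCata
Elf5: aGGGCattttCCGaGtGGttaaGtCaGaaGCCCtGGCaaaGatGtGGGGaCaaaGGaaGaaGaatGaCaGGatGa
Elf3: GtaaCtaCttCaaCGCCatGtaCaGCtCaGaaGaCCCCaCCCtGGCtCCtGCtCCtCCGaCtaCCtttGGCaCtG
Sox10: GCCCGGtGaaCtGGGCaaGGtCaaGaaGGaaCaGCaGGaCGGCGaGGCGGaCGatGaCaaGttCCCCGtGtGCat
Cebpb: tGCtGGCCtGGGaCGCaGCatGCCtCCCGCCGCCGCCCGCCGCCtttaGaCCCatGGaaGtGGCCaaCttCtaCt
On NCBI37/mm9 these are chr2:103107148-103107222 on the minus strand (exon 8 of 9), chr2:103289155-103289229 on the plus strand (exon 6 of 7), chr1:137154243-137154317 on the minus strand (exon 2 of 9), chr15:78993932-78994006 on the minus strand (exon 2 of 4) and chr2:167514532-167514606 on the plus strand (the single exon of the gene), all within the coding part. They hold 33, 36, 42, 46 and 50 G or C bases in the order shown. In gh18 the same genes deviated by 1.34 (*Ehf*), 0.32 (*Elf5*), -2.45 (*Elf3*), -1.71 (*Sox10*) and -0.06 (*Cebpb*) on the log2 scale. Over the 10 genes rho was -0.77, and over the 9 other than *Cebpb* it was -0.93. The log2 fold changes of the 10 factors are therefore given also after a GC correction, in which a smooth curve of deviation on GC content was subtracted from each library, and without gh18.

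**Figure D1:**
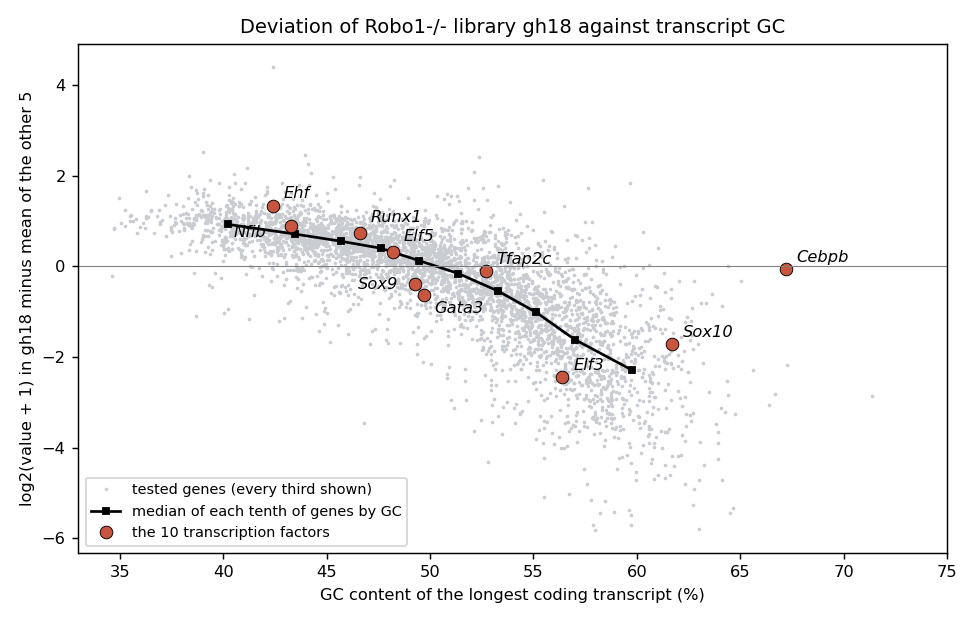
Log2 value in *Robo1-/-* library gh18 minus the average of the remaining 5 (vertical axis) against the GC content of the longest coding transcript in percent (horizontal axis). Grey points are 4176 of the 12528 tested genes, black squares the median of each of 10 equal bins of genes by GC content, and red points the 10 factors. *Ehf* and *Nfib* lie at the upper left, *Elf3* and *Sox10* at the lower right, and *Cebpb*, at 67.2% GC and a deviation of -0.06, lies above nearly all genes of its GC content.

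*Cebpb* was the exception to the trend. Its value in gh18 (439) was between those of the other libraries, where the curve for its GC content lay at -3.07. *Cebpb* has a single exon, and exon number goes with the size of the gh18 deviation among GC-rich genes. Of the tested genes with 60% GC or more, the 29 with 1 exon had a median deviation of -0.56 (quartiles -2.81 and -0.07) and the 539 with 2 or more exons a median of -2.54 (quartiles -3.54 and -1.70). *Cebpa*, the relative with 1 exon and 62.6% GC, deviated by 0.12. This split was chosen after the values were seen. The quartile ranges of the single-exon genes and the others overlapped, and whether exon number accounts for the exception of *Cebpb* was not tested. The GC-corrected value of *Cebpb* in gh18 is raised by subtracting the curve at -3.07.

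Per kilobase of the longest coding transcript, which allows genes to be compared, *Elf5* had the highest *Robo1+/+* level of the 10 and *Runx1* the lowest. *Elf5* was at 1230 ± 303 per kb (SD, n = 3), *Elf3* at 1099 ± 377 and *Ehf* at 874 ± 254. *Sox9* (815 ± 180), *Nfib* (702 ± 133) and *Sox10* (576 ± 92.5) followed. *Gata3* (392 ± 79.98), *Tfap2c* (373 ± 146), *Cebpb* (293 ± 89.5) and *Runx1* (276 ± 61.3) were lower. The 3 epithelial Ets factors thus came first by this length, but for every neighbouring pair in this order the ranges over the 3 *Robo1+/+* libraries overlapped. All annotated exons of *Elf5* together cover 5877 bases, against 2532 in its longest coding transcript. Those of *Elf3* cover 2000 by either measure, so the first place of *Elf5* rests on the length used. In unscaled counts, which depend on length, *Nfib* was the highest (6401 ± 1209), on a transcript of 9116 bases. All 10 genes were well above the detection floor, the least being *Elf3* in gh18 with 259 reads.

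Set per kb beside the relatives read here, *Gata3*, *Sox9*, *Runx1*, *Nfib* and *Tfap2c* had the highest *Robo1+/+* means, and *Elf5* did not. Family members that were not read are not covered. *Ets2*, a broadly expressed Ets factor, stood at 4985 ± 475 per kb in *Robo1+/+*, above every one of the 10. *Cbfb*, the partner that the Runx proteins bind, was at 518 ± 26.7 against 276 for *Runx1*, while *Runx2* was at 21.5 ± 12.8. *Gata3* was the only one of the 3 Gata genes read here that passed the filter on low reads, *Gata2* reaching 6.57 normalized counts at most. *Sox4* (764 ± 278) lay in the range of *Sox9*, and *Sox13* (89.2 ± 15.7) lay below *Sox10*. Among the nuclear factor I genes, *Nfib* was at 702 per kb and *Nfic*, *Nfix* and *Nfia* at 160 ± 16.6, 156 ± 27.7 and 120 ± 9.34. The other AP-2 factors *Tfap2b* (317 ± 128) and *Tfap2a* (261 ± 68.9) were close to *Tfap2c*. Among the C/EBP genes read here with a known length, *Cebpb* (293 ± 89.5) had the highest mean, with *Cebpg* (288 ± 28.3) within its spread. *Cebpd* had no known length and could not be placed, at 534 ± 159 normalized counts against 440 ± 135 for *Cebpb*. *Cebpz* (351 ± 77.7), a relative by symbol only, was also within the spread of *Cebpb*. None of the 75-base stretches of the 10 transcripts occurs in the coding transcript of another gene, so these relatives do not share reads of that length.

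**Figure D2:**
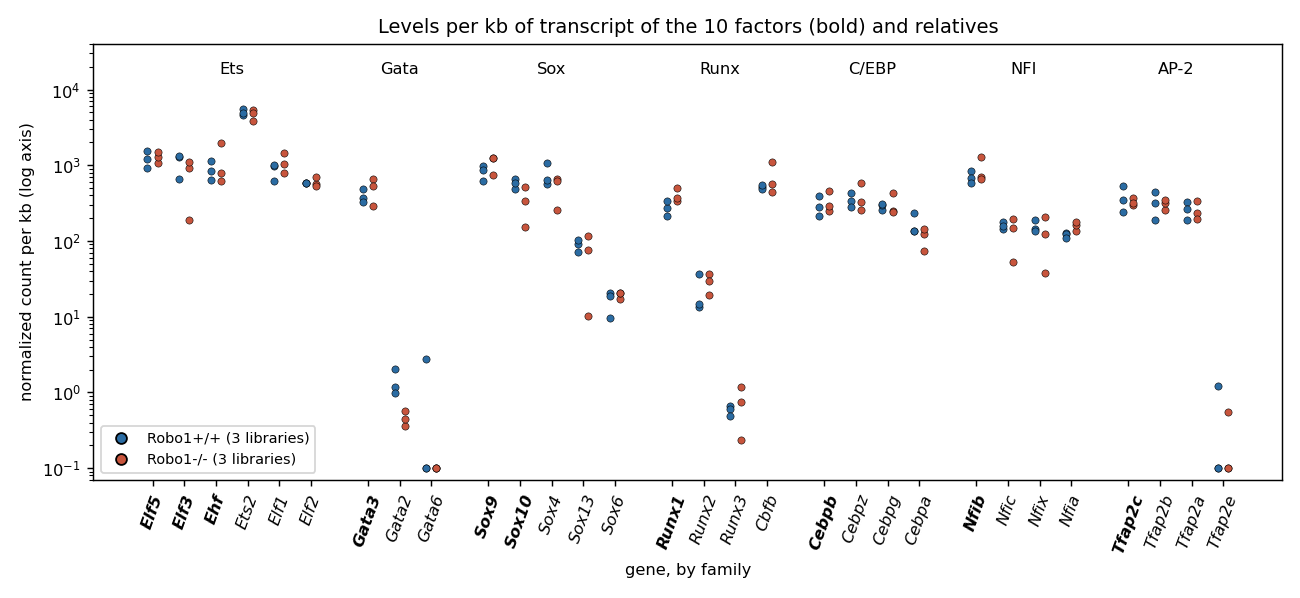
Normalized counts per kb of the longest coding transcript (log axis) of the 10 factors, in bold, and of relatives, grouped by family. *Cebpz* is drawn with the C/EBP genes by its symbol only. Each point is a library, blue for *Robo1+/+* and red for *Robo1-/-*, and a count of 0 is drawn at 0.1. *Gata2*, *Gata6*, *Runx3* and *Tfap2e* lie near the bottom, and *Ets2* lies above all others.

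*Elf5*, the alveolar switch gene (kgCluster14364, chr2:103251845-103291146), was at 3901, 3077 and 2366 in *Robo1+/+* libraries gh03, gh09 and gh15. In *Robo1-/-* libraries gh06, gh12 and gh18 it was at 2733, 3231 and 3759. The *Robo1-/-* values lay inside the *Robo1+/+* range, so *Elf5* did not separate the genotypes. On log2(value + 1), the fold change of *Robo1-/-* over *Robo1+/+* was 0.08 with a 95% interval from -0.52 to 0.67 (limma adjusted p = 0.935, exact permutation p = 0.8). In linear terms the interval runs from 0.698-fold to 1.59-fold, and a change within it was not detectable with 3 libraries a genotype. After GC correction the difference was -0.036 and without gh18 -0.038, both near 0.

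*Ehf* lies 108.4 kb from *Elf5*, start site to start site, and the genes are transcribed away from each other (*Ehf*, kgCluster14361, chr2:103103590-103143435, minus strand). It was at 5102, 2840 and 3778 in *Robo1+/+* and at 2752, 3563 and 8888 in *Robo1-/-*. Library gh18 held the highest value and *Robo1-/-* gh06 the lowest, so the genotypes overlapped completely (log2 fold change 0.22, 95% interval -0.87 to 1.31, limma adjusted p = 0.896, exact permutation p = 0.9). Without gh18 the difference was -0.28 (-0.91 to 0.36), and after GC correction it was -0.060.

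*Elf3* (kgCluster900, chr1:137150151-137155049) was at 1327, 2595 and 2670 in *Robo1+/+* and at 1840, 2219 and 378 in *Robo1-/-*. The spread of 7.06-fold between its highest and lowest library was the widest of the 10 genes and came from gh18. Over the 6 libraries the log2 fold change was -0.86 (-2.47 to 0.76, limma adjusted p = 0.858, exact permutation p = 0.5), and without that library it was -0.05 (-0.82 to 0.72). After GC correction it was -0.36 (-1.23 to 0.51), and gh18 was still the lowest library. An annotated gene on the opposite strand, *Gm16606*, overlaps 8.1% of the exon bases of *Elf3*, and whether the counting used strand is not given in the sources used here.

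A share within a library does not depend on the size factor. Of the summed per-kb level of *Elf5*, *Elf3* and *Ehf*, *Elf5* made up 46.0%, 38.6% and 30.0% in *Robo1+/+* and 41.3%, 40.1% and 40.5% in *Robo1-/-*. The means were 38.2% ± 8.03 and 40.6% ± 0.598 (SD, n = 3 each), a difference of 2.42 percentage points (exact two-sided permutation test, p = 0.7, where 3 against 3 libraries can give no p below 0.1). Without *Robo1+/+* gh15 the difference was -1.69 points, without gh18 it was 2.47 and after GC correction 2.25. The *Elf5* share was nearly the same in the 3 *Robo1-/-* libraries, where the shares of the other two genes were not. Before GC correction *Elf3* took 35.2%, 34.9% and 5.16% and *Ehf* 23.5%, 25.1% and 54.3%. *Elf3* has 56.4% GC and *Ehf* 42.4%. In gh18 the log2 ratio of *Elf3* to *Ehf* was -4.55 before GC correction and -2.77 after it. *Robo1+/+* library gh03 leaned the same way as gh18, with *Elf3* at 19.8% and *Ehf* at 34.1%. The libraries with the highest *Ehf* and the lowest *Elf3*, gh18 and gh03, are of different genotypes, and they kept these ranks after GC correction.

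**Figure D3:**
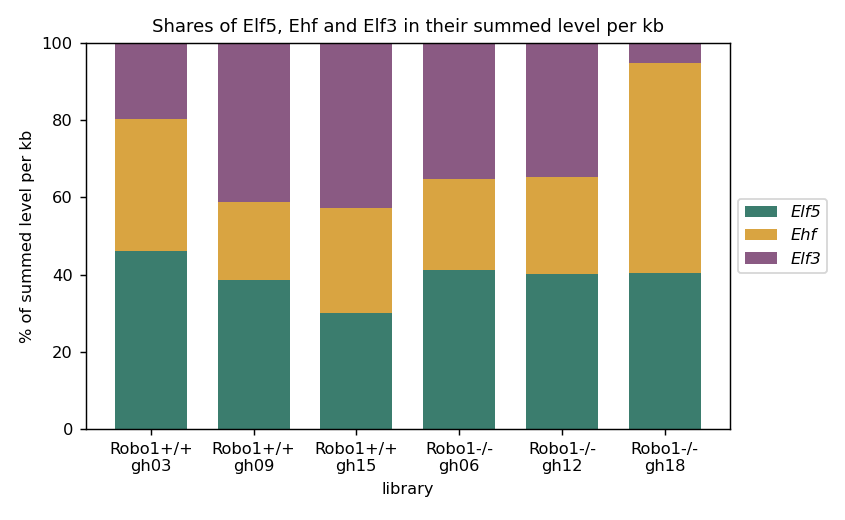
Shares of *Elf5*, *Ehf* and *Elf3* in their summed normalized count per kb, in percent, 1 bar for each of the 6 libraries. The *Elf5* share spans 30.0% to 46.0% over the *Robo1+/+* bars against 40.1% to 41.3% over the *Robo1-/-* bars, and the *Elf3* share is smallest in gh18 at 5.16%. These shares are not GC-corrected.

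*Gata3*, the luminal lineage factor (kgCluster13101, chr2:9778705-9811661), was at 1550, 1180 and 1055 in *Robo1+/+* and at 2142, 1691 and 944 in *Robo1-/-*. Libraries gh06 and gh12 lay above every *Robo1+/+* library, and gh18 lay below every one. Over the 6 libraries the log2 fold change was 0.28 (-0.53 to 1.08, limma adjusted p = 0.858, exact permutation p = 0.6). Without gh18 it was 0.61 (0.11 to 1.11, adjusted p = 0.938), and 0.59 when the 5 libraries were also GC-corrected (adjusted p = 0.889). With gh18 kept and GC-corrected it was 0.23. Without gh06, the library with the most *Gata3*, it was 0.021, so the size of the difference rested on which *Robo1-/-* library was left out. *Gata3* has 49.7% GC, where the gh18 curve lay at 0.07, and gh18 was still the lowest of the 6 after correction.

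*Sox9* and *Sox10* encode related HMG-box proteins. The longest identical run of their coding sequences is 44 bases, shorter than a read, and it is printed here in capitals with 15 bases on each side.
Sox9: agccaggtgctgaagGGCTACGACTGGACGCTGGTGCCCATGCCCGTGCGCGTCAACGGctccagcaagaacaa
Sox10: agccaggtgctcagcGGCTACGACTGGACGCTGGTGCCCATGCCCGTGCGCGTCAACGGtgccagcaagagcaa
These are bases 232 to 305 of the *Sox9* coding sequence and 229 to 302 of that of *Sox10*. *Sox9* (kgCluster4522, chr11:112643538-112649074) was at 2555, 4011 and 3539 in *Robo1+/+* and at 5239, 5132 and 3039 in *Robo1-/-*. As for *Gata3*, gh06 and gh12 were above all *Robo1+/+* libraries and gh18 was not. Its log2 fold change was 0.39 (-0.31 to 1.09, limma adjusted p = 0.858, exact permutation p = 0.3) over the 6 libraries and 0.65 (0.14 to 1.16, adjusted p = 0.938) without gh18. With GC correction of those 5 libraries it was 0.62 (adjusted p = 0.889), and of all 6 it was 0.33 (-0.35 to 1.01, exact permutation p = 0.4). Leaving out gh03, the library with the least *Sox9*, gave 0.20, and leaving out gh06 gave 0.26.

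*Sox10* (kgCluster8704, chr15:78985343-78994920) was at 1807, 1305 and 1572 in *Robo1+/+* and at 1403, 915 and 416 in *Robo1-/-*. Its mean in *Robo1-/-* was 58.4% of that in *Robo1+/+*, the lowest ratio of the 10, and gh12 and gh18 lay below every *Robo1+/+* library while gh06 did not. The difference was -0.93 on the log2 scale (-1.97 to 0.11, limma adjusted p = 0.858, rank 428 of 13692 by p, exact permutation p = 0.2), and -0.45 (-1.01 to 0.11) without gh18. At 61.7% GC the gh18 curve lay at -2.20, against a deviation of -1.71 in *Sox10*. After GC correction of all 6, gh18 was therefore the highest library in place of the lowest, and the difference was 0.06 (-0.72 to 0.84, exact permutation p = 1.0). With gh18 left out and the other 5 corrected it was -0.31 (adjusted p = 0.889). Without gh06, the *Robo1-/-* library with the most *Sox10*, the uncorrected difference was -1.33 and passed an unadjusted limma p of 0.05. In that fit, which kept gh18, 903 genes passed, against 231 with all 6 libraries.

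Within a library the log2 ratio of *Sox9* to *Sox10* was 0.50, 1.62 and 1.17 in *Robo1+/+* and 1.90, 2.49 and 2.87 in *Robo1-/-*. The genotypes did not overlap (exact two-sided permutation test, p = 0.1, the smallest that 3 against 3 libraries allow, adjusted over 45 pairs to 0.75). This pair was chosen after its values were seen. Of the 45 pairs of the 10 factors, 6 (13.3%) did not overlap, and of all pairs of tested genes 9.47% did not. After GC correction the ratio was 1.02, 2.18 and 1.73 in *Robo1+/+* and 2.62, 2.56 and 0.55 in *Robo1-/-*, so that gh06 and gh12 were above all *Robo1+/+* libraries and gh18 was below all of them. Of the 45 pairs, 2 were apart both before and after correction, *Elf3* with *Sox9* and *Sox10* with *Cebpb*. Both had an exact permutation p, adjusted over the 45 pairs, of 0.75 before and after correction. The share of all gene pairs apart after correction was not computed. The corrected ratio of *Sox10* to *Cebpb* includes the gh18 value of *Cebpb* that the correction raised.

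*Runx1* (kgCluster9883, chr16:92601712-92826311) was the only one of the 10 whose genotypes did not overlap in the deposited values. It was at 1527, 1959 and 2400 in *Robo1+/+* and at 2419, 2632 and 3562 in *Robo1-/-*. The highest *Robo1+/+* value and the lowest *Robo1-/-* value were close, and the step from 2400 to 2419 is small beside the spread within either genotype. Of all tested genes, 4.83% had all 3 *Robo1-/-* values above all 3 *Robo1+/+* values and 4.58% had them all below. Its log2 fold change was 0.55 (-0.05 to 1.16, limma adjusted p = 0.858, rank 387 of 13692 by p, exact permutation p = 0.1, the smallest possible). After GC correction the fold change was 0.38 (-0.05 to 0.81) and the genotypes did not overlap. The share of all genes that did not overlap after correction was not computed. Without gh18 the fold change was 0.39 (-0.11 to 0.89). As gh18 held the highest *Runx1* value, leaving it out could not make the genotypes overlap. *Robo1* is on the same chromosome, 19.56 Mb away. Its partner *Cbfb* had a log2 fold change of 0.33 ± 0.34 SE (adjusted p = 0.858), 0.046 after GC correction and -0.048 without gh18.

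*Cebpb* (kgCluster15422, chr2:167514415-167515918) was at 584, 317 and 418 in *Robo1+/+* and at 686, 380 and 439 in *Robo1-/-*. Per kb it was among the lowest of the 10, and its genotypes overlapped (log2 fold change 0.19, -0.61 to 0.99, limma adjusted p = 0.887, exact permutation p = 0.6). After GC correction it was 1.58 (-0.47 to 3.64, exact permutation p = 0.1) and the genotypes no longer overlapped, the log2 values being 8.37, 7.63 and 8.03 in *Robo1+/+* and 8.38, 8.55 and 11.85 in *Robo1-/-*. The highest of these is gh18, whose trend this gene did not follow. Without gh18 the corrected difference was 0.51 (adjusted p = 0.889) and the uncorrected difference 0.26 (adjusted p = 0.948). The gene *Tmem189* on the opposite strand overlaps 20.7% of the exon bases of *Cebpb* (312 bases). It was at 528, 732 and 778 in *Robo1+/+* and at 717, 637 and 182 in *Robo1-/-*, and without strand the reads of the overlap cannot be assigned.

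*Nfib* (kgCluster17432, chr4:81936077-82351654) was at 7732, 6102 and 5370 in *Robo1+/+* and at 6377, 5999 and 11637 in *Robo1-/-*. All libraries other than gh18 lay between 5370 and 7732. The log2 fold change of 0.27 (-0.46 to 1.00, limma adjusted p = 0.858, exact permutation p = 0.6) became 0.0092 (-0.42 to 0.44) after GC correction and -0.033 (-0.49 to 0.42) without gh18.

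*Tfap2c* (kgCluster15461, chr2:172375093-172384122) was at 1581, 723 and 1033 in *Robo1+/+* and at 1099, 884 and 954 in *Robo1-/-*. Its *Robo1-/-* values varied less (coefficient of variation 11.2%) than its *Robo1+/+* values (39.1%) and lay inside their range. Its log2 fold change was -0.12 (-0.86 to 0.62, limma adjusted p = 0.918, exact permutation p = 0.8), -0.10 without gh18 and 0.038 after GC correction.

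**Figure D4:**
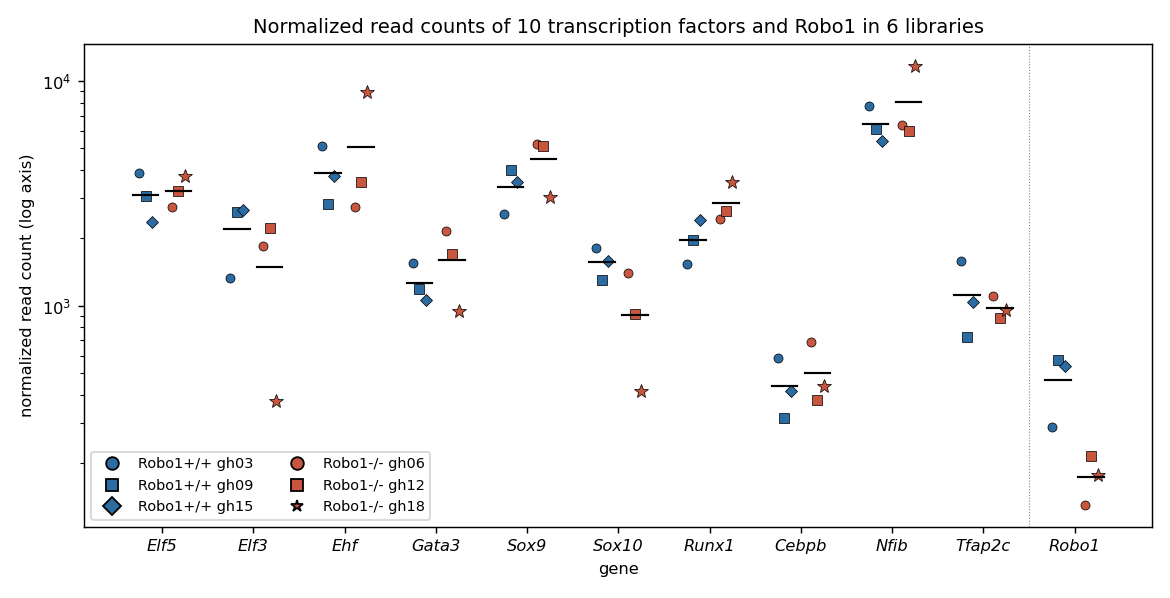
Normalized read counts (log axis) of the 10 factors and *Robo1* in each of the 6 libraries, blue for *Robo1+/+* and red for *Robo1-/-*, with a star for gh18 and a bar at the mean of each genotype. Among the 10 factors only *Runx1* has all red points above all blue ones, from 2419 against 2400, and the star is the extreme point for *Elf3*, *Ehf*, *Gata3*, *Sox10*, *Runx1* and *Nfib*.

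Read across the fit of all 13692 tested genes, none of the 10 factors passed an unadjusted limma p of 0.05 with the 6 libraries, where 1.69% of all genes did (231). At an adjusted p of 0.05, 0 of all tested genes passed (0.0%) with limma, 0 with edgeR and 1 with DESeq2, and the adjusted p of the 10 factors lay between 0.858 and 0.935. After GC correction none of the 10 passed either, against 1.58% of all genes. Without gh18, *Gata3* and *Sox9* passed, 2 of 10 against 4.2% of all genes, and with GC correction of those 5 libraries the same pair passed against 4.43%. The median log2 fold change of the 10 was 0.21 over the 6 libraries and 0.049 after GC correction, beside 0.0022 and 0.0037 over all genes. The narrowest intervals were those of *Elf5* and *Runx1*, and the widest, for *Elf3*, ran from 0.180-fold to 1.69-fold, so that a change of several fold in *Elf3* was not detectable with these libraries.

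**Figure D5:**
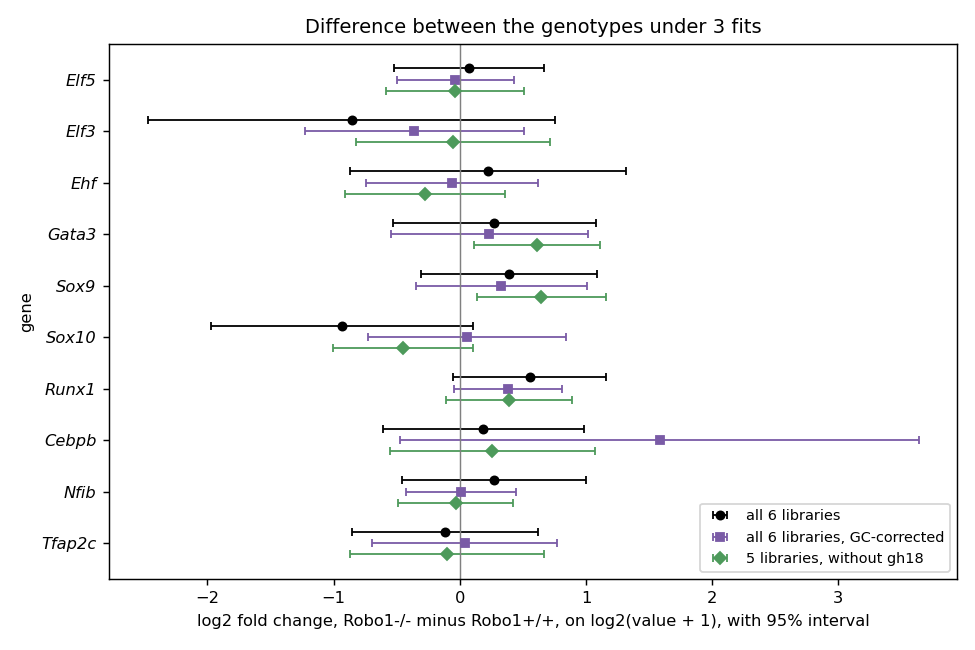
Log2 fold change (*Robo1-/-* minus *Robo1+/+*, on log2(value + 1)) of each factor with its 95% interval, for all 6 libraries (black), for all 6 after GC correction (purple) and for the 5 libraries without gh18 (green). All black and purple intervals include 0, and the green intervals of *Gata3* (0.11 to 1.11) and *Sox9* (0.14 to 1.16) do not.

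Relatives and partners of the 10 were set beside them. Of 29 such genes 22 were tested, and none passed an unadjusted p of 0.05 in either direction with limma, edgeR or DESeq2. *Nfia* was the nearest, at 1205, 1191 and 1044 in *Robo1+/+* and 1276, 1555 and 1696 in *Robo1-/-* (log2 fold change 0.39 ± 0.20 SE, adjusted p = 0.858), with 42.7% GC and a GC-corrected difference of 0.11. *Cebpa* was at 608, 358 and 357 in *Robo1+/+* and at 322, 194 and 375 in *Robo1-/-* (-0.58 ± 0.36 SE, adjusted p = 0.858). With 62.6% GC its sign turned after GC correction (0.49), and without gh18 the difference was -0.77.

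Of 35 other regulators of luminal and alveolar cells 33 were tested, and 3 were higher and 1 lower at an unadjusted p of 0.05 (1.69% of all genes passed it), each with an adjusted p of 0.858. *Hey1* and *Hey2*, transcriptional repressors induced by Notch, were at 586 ± 177 and 23.5 ± 5.27 in *Robo1+/+* and at 1320 ± 532 and 52.7 ± 4.53 in *Robo1-/-* (SD, n = 3 each, log2 fold changes 1.12 ± 0.41 SE and 1.15 ± 0.35 SE). *Heyl*, of the same family, went the other way, at 298 ± 77.8 in *Robo1+/+* and 108 ± 63.7 in *Robo1-/-* (-1.61 ± 0.50 SE). *Pgr*, the progesterone receptor, was at 2706 ± 875 and 4452 ± 910 (0.76 ± 0.31 SE). After GC correction *Hey1*, *Hey2* and *Pgr* were at 1.10, 0.96 and 1.23 on the log2 fold change scale, and without gh18 at 1.52, 1.13 and 0.87. The 20 genes of hormone and ligand inputs to alveolar fate were all tested, and of these *Pgr*, which both lists hold, was the only one past that p. After GC correction 5 of the 33 regulators passed, against 1.58% of all genes, and *Heyl* was not among them (-1.23). Without gh18 9 passed, *Heyl* included (-2.05), against 4.2% of all genes. *Stat5a*, the transducer between the prolactin receptor and *Elf5*, was chosen after its values were seen. It had a log2 fold change of -0.61 (adjusted p = 0.858), which was -0.16 after GC correction and -0.18 without gh18.

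The milk and secretory genes that the factors are known to serve were read last. Of 20 genes 19 were tested, and 2 passed the unadjusted p, against 1.69% of all genes, both higher in *Robo1-/-* with an adjusted p of 0.858. *Csn3*, kappa-casein, was at 8548 ± 1075 in *Robo1+/+* and at 15730 ± 3968 in *Robo1-/-* (log2 fold change 0.85 ± 0.26 SE), and *Lalba*, alpha-lactalbumin, at 1479 ± 234 and 2577 ± 538 (0.79 ± 0.24 SE). After GC correction the difference was 0.46 for *Csn3*, which no longer passed, and 0.82 for *Lalba*, which did. *Fasn*, fatty acid synthase, passed after correction as well and was lower in *Robo1-/-* (-0.80, and -1.40 before correction). After correction 1.58% of all genes passed. *Csn2*, beta-casein, chosen after its values were seen, was at 13697, 1139 and 2832 in *Robo1+/+* and at 674, 303 and 5456 in *Robo1-/-* (log2 fold change -1.77 ± 1.24 SE, adjusted p = 0.858). Without gh18, 3 of the genes passed the unadjusted p, against 4.2% of all genes, *Csn3* and *Lalba* higher and *Csn2* lower (-2.96). The library with the most *Csn2* in either genotype, gh03 and gh18, was also the highest of that genotype for *Elf5*, *Ehf* and *Nfib* and the lowest for *Elf3*, whereas *Csn3* and *Lalba* were highest in gh12 and did not share that order. This order was picked after the values were seen. *Csn2*, *Ehf* and *Nfib* have 42.4%, 42.4% and 43.3% GC and *Elf3* has 56.4%, and the part of the gh18 GC trend in the order was not tested.

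The genes whose pattern over the 6 libraries was most like that of *Elf5*, *Gata3* and *Sox10* were found among 10261 genes by the root mean square difference of centred log2 values. For *Elf5* these were *Fam3c* (0.050), *Msrb2* (0.078) and *Syne2* (0.079), *Fam3c* running at 2639, 2266 and 1714 in *Robo1+/+* and 1885, 2383 and 2768 in *Robo1-/-*. For *Gata3* they were *Egr1* (0.106), *Ier5* (0.151) and *Hscb* (0.152). *Egr1*, an immediate early gene, was at 12070, 11091 and 8519 in *Robo1+/+* and at 18540, 14151 and 8974 in *Robo1-/-*. For *Sox10* they were *Nol6* (0.061), *Shank2* (0.073) and *Wdr18* (0.088). Among the 10 factors themselves the closest pair was *Cebpb* with *Tfap2c* (0.235), and the gene closest to *Cebpb* was its relative *Cebpd* (0.128), chosen after its values were seen. The points of such a likeness share their libraries, and therefore depth and the GC trend of gh18.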

How the data were processed

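Poly(A)+ RNA of sorted luminal progenitors from 3 *Robo1+/+* and 3 *Robo1-/-* libraries was analysed, grouped by the genotype in the labels. The deposited values are a normalized signal. For each known-gene cluster, the authors divided reads by 1 size factor per library. Per the study's methods and the submitters' processing notes, which name Bowtie, TopHat, SAMtools and DESeq without versions, reads were trimmed to 75 bases, filtered for repeats and mapped to NCBI37/mm9. The counting tool and its use of strand are not given in the sources used here. Dividing by the value of 1 read returned whole reads for 100% of the values, within 0.02 of the deposited value. The recovered reads per library were between 9727191 and 17433868, so that 3 reads, taken as the detection floor, were worth 2.35 to 4.38. The floors cover counting error only, and the 95% intervals of fold changes come from the spread between libraries.

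limma 3.58.1 (R 4.3.3, trend) was run on log2(value + 1) for 13692 genes kept by filterByExpr of edgeR 4.0.16 on the recovered reads, with Benjamini-Hochberg adjustment. All p-values not called exact are limma's unless another tool is named. Alternatives were edgeR, DESeq2 1.42.0 and limma-voom on recovered reads, TMM and upper-quartile scaling, other filters, pseudocounts of 0.5 and 5, a GC correction (lowess, span 0.3) and each library left out. edgeR's count test had been planned only for raw counts. Positions, lengths, GC content and sequences come from GENCODE M1 on NCBI build 37, with 16491 of 18537 clusters placed by symbol. The main fit, edgeR, DESeq2, limma-voom and the GC correction were tested on simulated data that held no GC trend. The other steps were not tested in this way. The 10 genes and all gene lists were chosen with earlier results of these data known. All 10 factors and *Robo1* are named, of each other list at most the 4 genes with the smallest p, up to 3 relatives a family, and the 3 genes most like *Elf5*, *Gata3* and *Sox10* with a mean value of at least 100. Other genes named are said to be chosen after their values were seen or are cell type markers or overlapping genes. The value of 1 marker gene is not reported here.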

Additional observations from a re-analysis of the deposited data

How the results depend on the processing

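With 3 libraries a genotype, no exact p can be below 0.1. Of 13692 tested genes 231 passed an unadjusted p of 0.05, against 415 with no filter, 1641 with limma-voom and quality weights, 566 after GC correction without gh18, and 117 to 903 with a library left out (903 without gh06). Past an adjusted p, DESeq2 found 1 gene. Of the 10 factors 3 passed with limma-voom (*Gata3*, *Sox9* and *Sox10*), 2 after GC correction without gh18, and 0 to 2 with a library left out (*Gata3* and *Sox9* without gh18, *Sox10* at -1.33 without gh06). Their median log2 fold change was -0.038 after GC correction without gh18 and -0.035 to 0.318 with a library left out.

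*Elf3*, *Gata3*, *Sox9*, *Runx1* and *Robo1* kept their direction in all 17 alternatives (*Gata3* at 0.021 without gh06), and *Robo1* its p under 0.05. Signs turned for *Elf5* (-0.036 GC-corrected, -0.063 also without gh18, -0.108 to 0.252 with a library left out), *Ehf* (-0.067 with limma-voom, -0.060 GC-corrected, -0.319 also without gh18, -0.278 to 0.568), *Sox10* (0.060 GC-corrected), *Cebpb* (-0.062 to 0.413), *Nfib* (-0.072 GC-corrected without gh18, -0.033 to 0.445) and *Tfap2c* (0.038 GC-corrected, -0.390 to 0.174). The cause was not tested. The *Elf5* share differed by -1.690 to 6.333 points with a library left out (-1.690 without gh15), and by 2.113 when divided by exon union length, added after seeing the data. No paired analysis was made. The genotypes share no replicate numbers, and the labels used here do not say which libraries, if any, came from the same litter.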
